A study of Mus musculus with 2 samples.

Results

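Mast cells and basophils were 214 of the 10249 cells kept from 2 single-cell RNA sequencing libraries of synovial CD45+CD11b+ cells, namely 101 of 5696 β-glucan cells and 113 of 4553 PBS cells. Members were chosen by their measured levels of Cma1, Cpa3, Mrgprb1, Cyp11a1, Gata2, Ms4a2 and Mcpt8, and a cell was counted when 3 or more of these 7 genes had a unique molecular identifier (UMI, the tag that marks 1 captured RNA molecule). Only cells that had 500 or more detected genes and no more than 10% of UMIs from mitochondrial genes were searched. Both groups were wild-type C57BL/6 mice, 7 to 10 weeks old at the start, that received 1 mg β-glucan or PBS alone by i.p. injection 7 days before arthritis was induced. Hind-paw cells of 4 pooled mice per group were sorted at day 17 and made into 1 library per group. The deposited design and the study's methods give K/BxN serum transfer as the arthritis, whereas the treatment label describes an arthritogenic antibody cocktail followed by lipopolysaccharide, and this difference is not settled here. The β-glucan was from Trametes versicolor or from baker's yeast, and the sources used here do not say which these mice received. The libraries held 81611849 (β-glucan) and 73874602 (PBS) UMIs, 7 barcodes occurred in both, and 0 members carried such a barcode. With 1 library per group no test across samples can be made, so every comparison of β-glucan with PBS describes 2 libraries, and all 95% intervals cover counting error only.

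Mast cells live in tissues and store histamine, serotonin, heparin and proteases in granules, which they release when IgE bound to the high-affinity receptor is crosslinked or when other surface receptors are engaged. Connective-tissue mast cells are marked by the chymases Mcpt4 and Cma1, the tryptases Tpsb2 and Tpsab1, carboxypeptidase A3 (Cpa3) and the stem cell factor receptor Kit. Basophils share the IgE receptor, histamine synthesis and the transcription factor Gata2, circulate in blood, lack most mast-cell granule proteases and are known for Mcpt8 and for interleukin-4. Mast cells are long known in joint synovium, and serum transfer arthritis is a model in which they have been studied.

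The 250 bases before the start of 4 defining genes are shown because the members' genes were detected together: Cpa3 and Ms4a2, the β chain of the IgE receptor, had UMIs in both mast-type and basophil-type cells, Cma1 in mast-type cells and 1 undetermined member, and Mcpt8 mainly in basophil-type cells. Sequences are from GRCm39, the build of the files, before the start of the canonical GENCODE transcript. Capitals mark AGATAA, the core bound by GATA factors, or the E-box CAGCTG, on either strand, and the letters of these motifs do not overlap here.
Cpa3, chr3:20296363-20296612, minus strand: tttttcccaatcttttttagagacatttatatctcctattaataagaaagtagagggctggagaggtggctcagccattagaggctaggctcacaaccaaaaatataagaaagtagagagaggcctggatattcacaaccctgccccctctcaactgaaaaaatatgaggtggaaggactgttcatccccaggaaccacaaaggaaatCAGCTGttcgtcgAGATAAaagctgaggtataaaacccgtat
Ms4a2, chr19:11601084-11601333, minus strand: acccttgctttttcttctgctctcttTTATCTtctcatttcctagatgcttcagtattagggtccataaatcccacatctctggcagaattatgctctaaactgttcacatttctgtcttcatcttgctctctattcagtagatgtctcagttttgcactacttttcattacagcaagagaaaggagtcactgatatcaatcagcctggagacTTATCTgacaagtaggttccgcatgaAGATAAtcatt
Cma1, chr14:56182133-56182382, minus strand: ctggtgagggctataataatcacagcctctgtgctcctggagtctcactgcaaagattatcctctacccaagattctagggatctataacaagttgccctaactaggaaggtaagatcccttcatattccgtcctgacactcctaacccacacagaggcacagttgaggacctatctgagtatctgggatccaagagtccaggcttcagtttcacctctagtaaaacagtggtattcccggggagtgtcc
Mcpt8, chr14:56322655-56322904, minus strand: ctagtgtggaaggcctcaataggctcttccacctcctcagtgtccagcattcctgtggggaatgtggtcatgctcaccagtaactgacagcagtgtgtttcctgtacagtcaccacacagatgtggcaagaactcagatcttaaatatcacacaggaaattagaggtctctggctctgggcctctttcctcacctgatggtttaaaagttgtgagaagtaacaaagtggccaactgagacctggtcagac
AGATAA began 29 bases before the start of Cpa3 and CAGCTG 42 bases before it. Ms4a2 held AGATAA on 3 occasions, beginning 224, 37 and 11 bases before its start. Fcer1a, the α chain of the IgE receptor, held it 107 bases before its start, and Il1rl1, the interleukin-33 receptor, 101 bases before. In windows of the same length, AGATAA was present before 9.62% of 21403 protein-coding genes, and it was present before 3 of the 10 genes that chose or split the members, 7 of 25 IgE and surface receptor genes, 4 of 24 cytokine and chemokine genes, 2 of 16 granule proteases, 1 of 6 amine genes and 1 of 8 macrophage markers. CAGCTG was present before 11.91% of all genes and 1 of those 10, and the E-box CACGTG before 6.3% of all genes and 0 of those 10. A match describes letters in a window and is not evidence of binding.

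The labelled cell types were checked against their markers. Because the genes of the rule chose the members, their levels are given as a description. Cma1 was detected in 97 of 97 and 101 of 102 cells of the mast type defined below, in the β-glucan and PBS library respectively, Cpa3 in 97 and 102, and Kit, which the rule did not use, in 96 and 100. Cells that should lack these genes were used to gauge stray RNA, whose source was not tested. A Cma1 UMI was found in 1.93% of 4448 β-glucan and 2.68% of 3581 PBS cells of a macrophage reference class, at median depths of 13043 and 15631 UMIs, against median depths of 4323 and 3462.5 UMIs in mast-type cells. In a B-cell reference class the shares were 0.429% of 233 and 1.65% of 182 cells. A reference class was made of cells with at least 3 detected markers of 1 list and at most 1 gene of the rule. That upper limit can itself lower these shares. Few cells lay near the rule's threshold. Just outside it, 5 β-glucan and 3 PBS cells had UMIs of 2 genes of the rule, with 2 to 6 such UMIs each. Just inside it, 1 cell in each library had UMIs of 3 genes, with 11 UMIs in the β-glucan and 5 in the PBS cell, whereas 76 β-glucan and 86 PBS members had UMIs of 6 genes.

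Members also lay together on genes the rule had not used. When cells were clustered without the genes of the rule or of the split, 190 members made up all but 1 cell of a cluster of 191, and 15 members made up the whole of a second cluster of 15. The first held mast-type cells alone, and the second held 12 basophil-type cells, 2 undetermined cells and 1 mast-type cell. The other 9 members were scattered over clusters of 185 to 1375 cells. Of 4230 genes, 297 (7.02%) were at least 4-fold higher in members than in the other cells in both libraries, a share that follows in part from the choice of members.

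The 10 genes outside the rule that stood highest over the other cells, by the lower of the 2 libraries, were Fcer1a, Tph1, Tpsg1, Tpsab1, Hs6st2, Mrgprb2, Mrgprx2, Cntn4, Rgs13 and Slc6a4. Tph1, the enzyme that begins serotonin synthesis outside the brain, was at 739 CPM (UMIs summed over cells and scaled to a total of 1e+06) in β-glucan and 730 CPM in PBS mast-type cells, and at 0.13 and 0.1 CPM in cells that were not members. Slc6a4, the serotonin transporter, was at 873 and 1105 CPM in mast-type cells and 0.75 and 0.63 CPM in the other cells. Mrgprb2, the receptor through which mast cells respond to basic secretagogues, was at 327 and 418 CPM in mast-type cells and 0 in basophil-type cells. Hs6st2, a heparan sulfate sulfotransferase, was at 1418 and 1695 CPM, and Rgs13, a brake on G-protein signalling, at 145 and 149 CPM. These genes were within 1.5-fold of each other between the libraries, except Tpsg1 and Fcer1a, which are described below.

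Members were then divided by protease genes. A member was called mast-type when its UMIs of Cma1, Mrgprb1, Mcpt4 and Tpsb2 together exceeded those of Mcpt8 and Prss34, basophil-type in the reverse case, and undetermined when equal. Mast-type cells were 97 of 101 β-glucan members (96.0%, 90.2 to 98.9, Clopper-Pearson) and 102 of 113 PBS members (90.3%, 83.2 to 95.04). Basophil-type cells were 3 (2.97%, 0.617 to 8.44) and 10 (8.85%, 4.33 to 15.7), and 1 cell in each library was undetermined. The mast-type cells stood far from equality, with a median of 248 split UMIs per β-glucan cell and 235 per PBS cell of Cma1, Mrgprb1, Mcpt4 and Tpsb2.

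**Figure D1:**
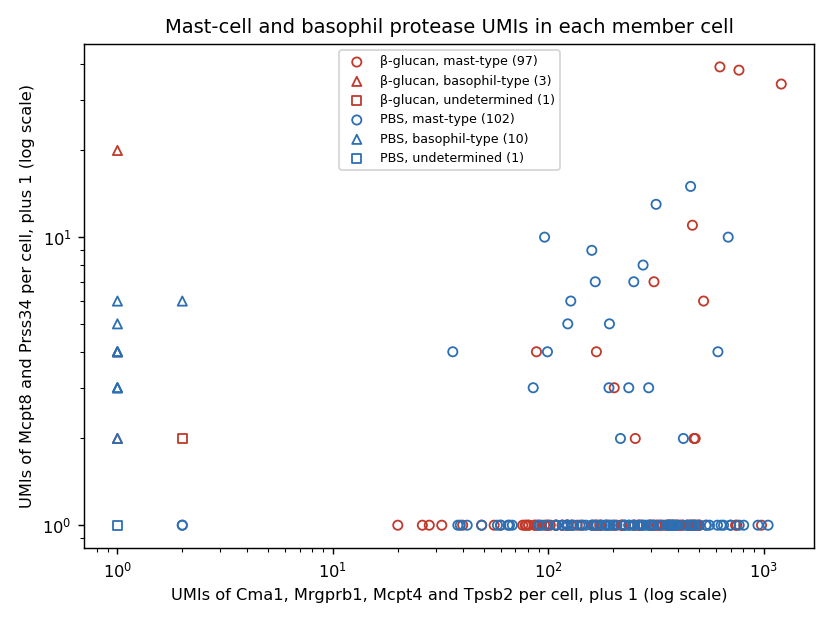
UMIs of 4 mast-cell genes (horizontal axis, plus 1, log scale) and of Mcpt8 and Prss34 (vertical axis, plus 1, log scale) in each of the 214 member cells, by library and type. Mast-type cells lie to the right, basophil-type cells at the left edge, and 2 PBS mast-type cells at the left rest on 1 split UMI.

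A few cells were unclear. Of the 2 PBS mast-type cells that rested on 1 split UMI, 1 had 80 UMIs of Ccl3, 125 of Ccl4 and 0 of Kit and lay in the basophil-type cluster, and the other had 16 UMIs of Hdc and 1 of Kit beside 350 of S100a9 and 246 of S100a8, which are neutrophil genes. Both undetermined cells had over 100 UMIs of Hdc (112 and 146) and 0 of Kit, with 7 UMIs of Cd200r3 each. Prss34, a protease known from basophils, was found mainly in mast-type cells. It had 139 UMIs in 11 of 97 β-glucan mast-type cells and 102 UMIs in 20 of 102 PBS mast-type cells, 226 and 213 CPM, and was at 0 in the β-glucan and 23.1 CPM in the PBS basophil-type cells. Among the 13 basophil-type cells, Prss34 was found in 1 and Mcpt8 in 13.

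As a share of all cells kept, members were 1.77% (1.45 to 2.15) of β-glucan and 2.48% (2.05 to 2.98) of PBS cells, and the intervals overlapped between 2.05% and 2.15%. Mast-type cells were 1.70% (1.38 to 2.07) and 2.24% (1.83 to 2.71), and basophil-type cells 0.053% (0.011 to 0.154) and 0.22% (0.105 to 0.404). The cells came from a sort for CD11b, which can set these shares. Itgam, the gene of CD11b, was found in 20 of 97 β-glucan and 6 of 102 PBS mast-type cells (117 and 54.4 CPM), in 1 of 3 and 6 of 10 basophil-type cells (239 and 231 CPM), and in 88.2% and 91.1% of the macrophage class (349 and 354 CPM). Itgam was thus low in mast-type cells of both libraries, and the intervals of the mast-type shares, 13.1 to 30.03% and 2.19 to 12.4%, did not overlap. After thinning to 3000 UMIs it was found in 8 of 60 and 5 of 63 mast-type cells. The log2 ratio of Itgam, β-glucan over PBS in mast-type cells, was 1.11. It ranged from -1.98 to 5.18 over the alternatives described below, so no direction held.

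Depth and markers of other cells differed between the mast-type cells of the libraries, which bears on every ratio below. Of the mast-type cells, 13 β-glucan cells had more than 10000 UMIs and held 42.3% of all β-glucan mast-type UMIs, with a largest cell of 59582 UMIs, whereas 7 PBS cells did and held 24.8%. In the deep β-glucan cells granule proteases were a median of 2.23% of UMIs and the 8 macrophage markers together a median of 10928 CPM, against 7.14% and 1912 CPM in the other β-glucan cells. In the deep PBS cells the medians were 6.23% and 3344 CPM, against 7.61% and 1599 CPM. Macrophage markers at 25% or more of the macrophage-class median were seen in 31 of 97 and 17 of 102 mast-type cells. The summed level of the 8 markers in mast-type cells was 6178 CPM in β-glucan and 3323 CPM in PBS, with Apoe as the most abundant (2757 and 2239 CPM) and none at 0, against 15613 and 14472 CPM in macrophages, and 7 of the 8 were at least 1.5-fold higher in β-glucan. Doublet calling by Scrublet marked 0 and 3 cells. These calls were not checked and were not relied on, so doublets were not removed. Comparisons are therefore given over all mast-type cells and, for many genes and lists, also without the cells with macrophage markers at 25% or more, called macrophage-marked here, which left 66 and 85 cells. The part of macrophage RNA in the ratios was not otherwise tested.

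**Figure D2:**
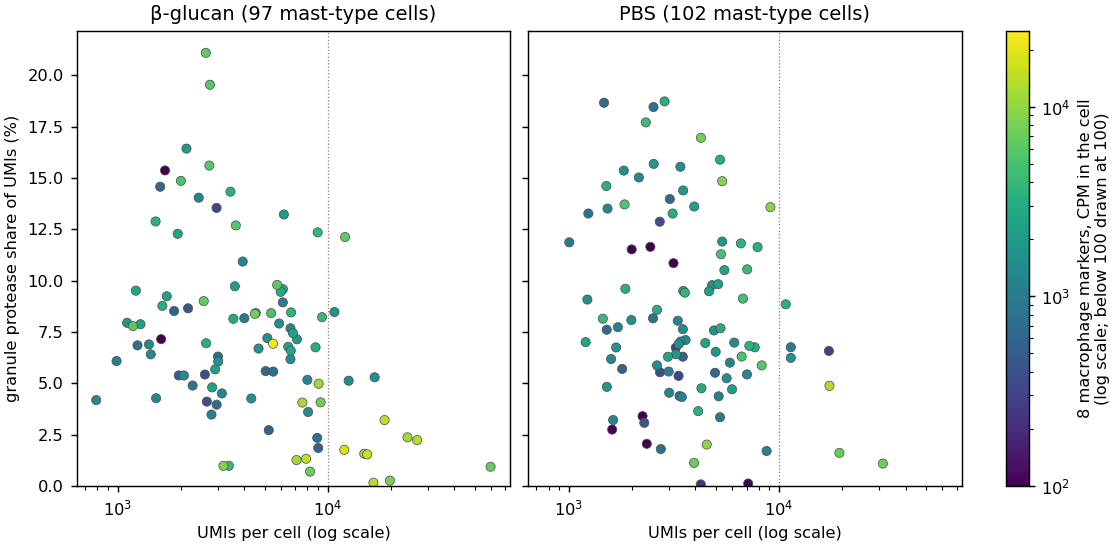
Share of UMIs from granule protease genes (vertical axis, percent) against UMIs per cell (horizontal axis, log scale) for each mast-type cell, with colour giving the CPM of 8 macrophage markers on a log scale and the dotted line at 10000 UMIs. In the β-glucan panel most of the 13 cells right of the line are low in proteases and high in macrophage markers.

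Of the markers of other cell types, neutrophil markers came to 1042 and 1373 CPM in the mast-type sums, against 31.4 and 31.9 CPM in the macrophage class, mostly S100a9 (506 and 737 CPM) and S100a8. They came from few cells. In β-glucan 5 of 97 mast-type cells had S100a9, 1 of them with 175 of its 311 UMIs, and in PBS 3 of 102 did, 1 with 350 of 352 UMIs, which is the cell with 16 UMIs of Hdc described above. For the cytokine list, values are also given below without the 3 β-glucan cells with 10 or more UMIs of S100a9 and both PBS cells on 1 split UMI, which left 94 and 100 cells. B-cell markers came to 204 and 138 CPM, T-cell markers to 8.1 and 0 CPM, and stromal markers to 17.9 and 25.1 CPM. The eosinophil genes Epx, Prg2, Prg3 and Ear1 were at 0 in mast-type and basophil-type cells of both libraries. Siglecf, the other gene of that list, was at 3.26 and 2.09 CPM in mast-type cells. In basophil-type cells it was at 0 in β-glucan and 69.4 CPM in PBS. Proliferation genes came to 132 and 46.0 CPM in mast-type cells, mainly Stmn1, of which 41 of 49 β-glucan UMIs were in 1 cell.

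Mast-type cells of both libraries carried the proteases of connective-tissue mast cells. Cma1, Mcpt4 and Tpsb2 had chosen or split the members, so their high levels follow from that choice and are given as a description. Tpsab1 was used for neither. Mcpt4 was at 19353 CPM in β-glucan and 27267 CPM in PBS, Cma1 at 15285 and 21944 CPM, Tpsb2 at 7692 and 9682 CPM, and Tpsab1 at 967 and 1130 CPM. Per cell, Cma1 had a median of 182 UMIs per 10000 UMIs in β-glucan (quartiles 122 and 251) and 226 in PBS (148 and 326), and the quartile ranges overlapped. The mucosal mast-cell protease Mcpt2 had 1 and 5 UMIs, and Mcpt1 and Mcpt9 had 0. Tpsb2 and Tpsab1 shared 9 of their 31-base words (0.77% of the smaller transcript), and Cma1 and Mcpt4 shared 0, so few reads could be split between these pairs. Proteases as a list summed to 52706 CPM in β-glucan and 72719 CPM in PBS mast-type cells.

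For the comparison of the β-glucan with the PBS library in mast-type cells, 4293 genes reached 50 CPM in either library. Of these, 572 (13.3%) were at least 1.5-fold higher in β-glucan, 393 (9.15%) were at least 1.5-fold lower, and over all of them the log2 ratio had a median of -0.01. Among 11 granule proteases at that level, 1 was at least 1.5-fold higher and 3 lower, and the middle log2 ratio of the list was -0.48. Of the 11, 5 had chosen or split the members, Cma1, Mcpt4, Cpa3, Tpsb2 and Prss34. The log2 ratio was -0.52 for Cma1 (-0.56 to -0.48), -0.49 for Mcpt4 (-0.53 to -0.46), -0.48 for Cpa3 (-0.54 to -0.43) and -0.33 for Tpsb2 (-0.39 to -0.27). Without the cells rich in macrophage markers these ratios were -0.21, -0.14, -0.13 and -0.00, and with equal weight per cell -0.25, -0.20, -0.24 and -0.11. Cma1, Mcpt4, Cpa3 and Tpsb2, all of which had chosen or split the members, were lower in the β-glucan sum by less than 1.5-fold. They were lower by less again where the deep or macrophage-marked cells counted less. Tpsab1, an abundant tryptase used for neither, had a ratio of -0.22 (-0.39 to -0.05). Its ratio ranged from -0.26 to 0.36 over the alternatives, so no direction held. Tpsg1, the transmembrane tryptase, was lower in β-glucan under every alternative. It had 97 UMIs in 54 of 97 β-glucan cells and 142 UMIs in 62 of 102 PBS cells, a log2 ratio of -0.91 (-1.30 to -0.53), which was -0.76 without the macrophage-marked cells and -0.32, under 1.5-fold, without cells with macrophage markers at 10% or more. Cma2 was at 45.6 and 92.1 CPM (-1.01, -1.75 to -0.30; -0.19 without cells with macrophage markers at 10% or more) and Ctsg, cathepsin G, at 176 and 274 CPM (-0.64, -1.02 to -0.26), and Ctsg ranged from -2.70 to -0.36 over the alternatives. Ctsl, a lysosomal cathepsin abundant in macrophages (248 and 244 CPM there), was at 111 and 23.0 CPM in mast-type cells, but its ratio turned from 2.27 to -0.95 without the macrophage-marked cells.

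Most genes of stored amines differed by less than 1.5-fold over all mast-type cells. Hdc, which makes histamine, was at 5709 CPM in β-glucan and 6196 CPM in PBS mast-type cells, a log2 ratio of -0.12 (-0.19 to -0.05) that became 0.23 without the macrophage-marked cells, so no direction held. Tph1 had a ratio of 0.02 (-0.19 to 0.22), which was 0.44 without those cells and 0.83 without cells with macrophage markers at 10% or more. Slc18a2, the vesicular transporter that loads amines into granules, was at 498 and 680 CPM (-0.45, -0.68 to -0.22) and -0.22 without the macrophage-marked cells. Maob, which breaks amines down, was at 321 and 494 CPM (-0.62), but its ratio was 0.20 without cells with macrophage markers at 10% or more. It was the 1 gene of 5 at this level that was at least 1.5-fold lower, against 9.15% of all genes. Of the 5 genes, 0 were higher, against 13.3% of all genes. Srgn, the serglycin core protein that packs granules, was at 2237 and 3183 CPM (-0.51), and Ext1, which extends heparan chains, at 2853 and 4030 CPM (-0.50). Their ratios were -0.34 and -0.02 without the macrophage-marked cells. Of the 7 granule-matrix genes at this level, 0 were at least 1.5-fold higher and 1 lower, against 13.3% and 9.15% of all genes. The lower gene was Hs3st1, with 32 UMIs in 13 β-glucan and 66 UMIs in 37 PBS cells (-1.41), which turned to 0.070 after thinning. Among 8 exocytosis genes at this level, none differed by 1.5-fold, whereas 13.3% of all genes were higher and 9.15% lower. Leaving out the macrophage-marked cells gave 1 higher and 1 lower, against 536 and 589 of 4288 genes. Leaving out cells with macrophage markers at 10% or more gave 3 higher and 1 lower, against 808 and 868 of 4274. Rab27b, a granule-docking GTPase, was at 861 and 1128 CPM and at 0 in the basophil-type sums.

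Of the IgE receptor chains, Fcer1a, the α chain, was lower in β-glucan mast-type cells. It had 218 UMIs in 57 of 97 β-glucan and 280 UMIs in 71 of 102 PBS cells, which was 355 and 586 CPM. Its log2 ratio was -0.72 (-0.98 to -0.46) and ranged from -0.86 to -0.49 over all alternatives. Per cell its median was 1.65 UMIs per 10000 in β-glucan and 5.58 in PBS. Ms4a2, whose UMIs helped choose the members and which is given as a description, was at 576 and 879 CPM (-0.61, -0.82 to -0.40), and -0.27 without the macrophage-marked cells. Fcer1g, the γ chain that macrophages also use (1196 and 1252 CPM there), was at 1876 and 2446 CPM (-0.38; -0.41 to -0.11 over the alternatives). Itga2, the integrin subunit CD49b, had 95 UMIs in 47 β-glucan and 173 UMIs in 58 PBS mast-type cells, 155 and 362 CPM, a ratio of -1.23 (-1.60 to -0.86), and stayed between -1.50 and -0.83 under all alternatives. Kit was at 1790 and 2327 CPM (-0.38, -0.50 to -0.26), but at -0.02 without the macrophage-marked cells. Il1rl1 was at 1855 and 1856 CPM (-0.00, -0.13 to 0.13).

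**Figure D3:**
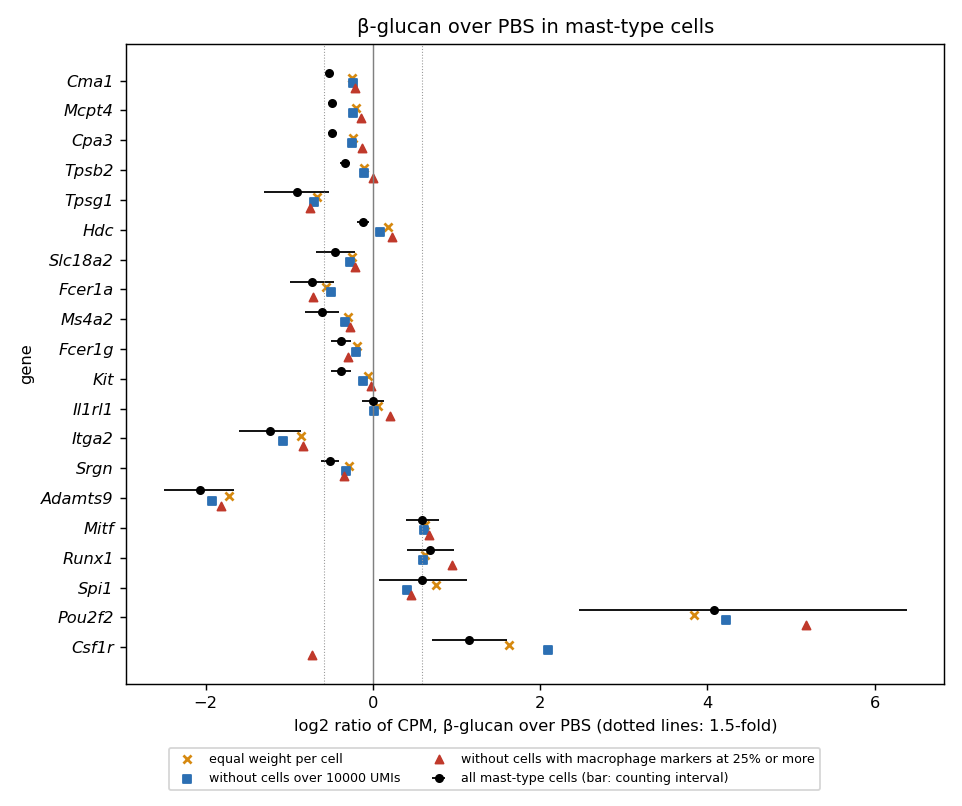
Log2 ratio of CPM, β-glucan over PBS, in mast-type cells (horizontal axis) for 20 genes (vertical axis), over all cells with the 95% counting interval as a bar, and under 3 alternatives as symbols; dotted lines mark 1.5-fold. Tpsg1, Fcer1a, Itga2 and Adamts9 stay left of 0 and Mitf, Runx1 and Pou2f2 right of 0 under each symbol, whereas Csf1r crosses 0 without the macrophage-marked cells.

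Of the 21 IgE and surface receptor genes at this level, 5 were at least 1.5-fold higher and 4 lower, against 13.3% and 9.15% of all genes. Leaving out the macrophage-marked cells gave 1 higher and 5 lower, against 536 and 589 of 4288 genes. The 5 higher over all mast-type cells were Itgam, C5ar1, C3ar1, Fcgr2b and Csf1r, all receptors that macrophages carry. Their ratios were -0.73, -1.73, -0.095, 0.11 and -0.73 without the macrophage-marked cells. The 4 were Fcer1a, Itga2, Il3ra and Ms4a2, and Ms4a2 is a gene of the member rule, as is Mrgprb1 in this list. Il3ra was at -0.62, and at -0.25 without the macrophage-marked cells. Among 16 genes of signalling from the IgE receptor, 1 was higher (Plcg2, 1.08) and 1 lower (Plcg1, -0.74), against 13.3% and 9.15% of all genes. Without the macrophage-marked cells their ratios were 0.73 and -0.47. That left 1 higher and 0 lower, against 536 and 589 of 4288 genes. Lyn, the kinase that begins the signal, was at 866 and 887 CPM (-0.03), Gab2, an adaptor, at 673 and 950 CPM (-0.50), and Inpp5d, the SHIP1 phosphatase that restrains it, at 920 and 1103 CPM (-0.26). Of the 6 eicosanoid genes at this level, 3 were higher (Alox5, Alox5ap and Tbxas1) and 0 lower, against 13.3% and 9.15% of all genes. The ratios of these 3 turned to -1.19, -0.45 and -1.54 without the macrophage-marked cells. There 1 of the 6 was higher and 3 lower, against 536 and 589 of 4288 genes. The list median turned from 0.58 to -0.80. Hpgds, which makes prostaglandin D2, was at 334 and 383 CPM (-0.20, -0.49 to 0.10), and at 0.23 without those cells.

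Among transcription factors, Mitf and Runx1 were higher in β-glucan mast-type cells under every alternative tried. Mitf, a master factor of mast-cell and melanocyte genes, had 629 UMIs in 84 of 97 β-glucan cells and 325 UMIs in 79 of 102 PBS cells, 1024 and 680 CPM. Its log2 ratio was 0.59 (0.40 to 0.79) and ranged from 0.39 to 0.70 over the alternatives. It was 0.67 without the macrophage-marked cells, and 0.39, under 1.5-fold, without cells with macrophage markers at 10% or more. Per cell the median was 7.50 UMIs per 10000 in β-glucan (quartiles 3.55 and 14.3) and 4.43 in PBS (1.94 and 8.68), and the ranges overlapped. In the macrophage class of the same libraries Mitf was at 659 and 370 CPM, a ratio of 0.83, so the direction was not particular to mast-type cells. Runx1, a factor of blood-cell development, had 329 UMIs in 65 cells and 159 UMIs in 51 cells, 536 and 333 CPM (0.69, 0.41 to 0.97), and from 0.60 to 1.05 over the alternatives, against 0.11 in macrophages. Ikzf1, another factor of blood lineages, was at 521 and 402 CPM (0.38). Gata2, which chose the members, was at 863 and 929 CPM (-0.11), and Tal1, its partner, at 249 and 236 CPM (0.08).

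In this list 4 of the 15 factors at this level were at least 1.5-fold higher and 0 lower, against 13.3% and 9.15% of all genes, with a median of 0.12; the other 2 were Spi1 and Maf. Without the macrophage-marked cells Spi1 was at 0.45, under 1.5-fold, and Maf, a factor of macrophages, at -0.41. There 5 factors were higher and 1 lower, against 536 and 589 of 4288 genes. Among 8 mast-cell genes known to depend on Mitf, 0 were at least 1.5-fold higher or lower, 1 had a ratio above 0 and 7 below 0, with a median of -0.36, against 2098 and 2195 of all 4293 genes. Without the macrophage-marked cells 3 were above and 5 below 0, with a median of -0.011. That list overlaps the protease list in Cma1, Mcpt4, Cpa3 and Tpsb2, which chose or split the members.

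Mast-type cells carried chemokine and cytokine transcripts in both libraries. Ccl2, which attracts monocytes, was at 656 CPM in β-glucan and 743 CPM in PBS, in 81 of 97 and 75 of 102 cells, a log2 ratio of -0.18 (-0.39 to 0.03). Ccl7, a related chemokine, was at 609 and 609 CPM (0.00, -0.22 to 0.23). Over the alternatives Ccl2 ranged from -0.27 to 0.22 and Ccl7 from -0.21 to 1.22, so neither kept a direction. These levels stood above those of the macrophage class, where Ccl2 was at 37.7 and 60.6 CPM and Ccl7 at 16.0 and 26.5 CPM. Il4 was found in 49 of 97 and 40 of 102 mast-type cells (208 and 174 CPM; 0.26, -0.15 to 0.68), against 0.337% and 0.419% of the deeper macrophage-class cells, and Tnf in 45 and 45 cells (142 and 201 CPM; -0.50). Over the alternatives the ratio of Il4 ranged from 0.19 to 1.09 and that of Tnf from -0.62 to 0.30. Il13, the Th2 cytokine, had 3 and 2 UMIs. Of 13 cytokine and chemokine genes at this level, 3 were at least 1.5-fold higher and 3 lower, against 13.3% and 9.15% of all genes. Leaving out the cells on 1 split UMI or with 10 or more S100a9 UMIs gave 5 higher and 1 lower. Over all genes that setting gave 565 higher and 383 lower of 4292. The 3 lower genes, Ccl3, Ccl4 and Il6, came in PBS almost wholly from 1 and the same cell (80 of 80, 125 of 126 and 29 of 31 UMIs), the mast-type cell on 1 split UMI that lay in the basophil-type cluster. Without the cells on 1 split UMI or with 10 or more S100a9 UMIs, they had 2 and 0, 3 and 1, and 1 and 2 UMIs in β-glucan and PBS. The 3 higher genes, Ccl9, Cxcl2 and Il1b, were found in 17, 5 and 8 of 97 β-glucan cells, where 1 cell each gave 48 of 108, 41 of 66 and 45 of 114 UMIs. Without the macrophage-marked cells the ratios of Ccl9 and Il1b turned to -1.32 and -0.091, and that of Cxcl2 was 2.82 against 2.68. The cell with 41 Cxcl2 and 45 Il1b UMIs also had 175 of S100a9, and without the cells on 1 split UMI or with 10 or more S100a9 UMIs Cxcl2 had 7 and 3 UMIs in β-glucan and PBS, a ratio of 0.89, and Il1b 28 and 5 UMIs, a ratio of 2.16.

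Immediate-early genes, which respond within minutes to many stimuli, tissue digestion among them, were abundant. Fos was at 2636 and 2580 CPM (0.03, -0.08 to 0.14) in mast-type cells and 452 and 449 CPM in macrophages, and its mast-type ratio was 0.60 without the macrophage-marked cells. Of 14 such genes at this level, 1 was at least 1.5-fold higher and 1 lower, against 13.3% and 9.15% of all genes. These were Atf3 (59 and 5 UMIs) and Klf2 (298 and 513 CPM, -0.78), respectively. Neither call held without the macrophage-marked cells, where Atf3 had 1 and 2 UMIs and Klf2 was at -0.37, and over the alternatives Klf2 ranged from -0.81 to -0.22. Leaving out the macrophage-marked cells gave 3 of the 14 genes higher and 2 lower, against 536 and 589 of 4288 genes. The list median turned from -0.24 to 0.22.

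The genes with the largest ratios were also described, leaving out the rule and split genes. Of the 8 lowest at 100 CPM or more in either library, Adamts9 was the most broadly detected. This extracellular metalloprotease had 63 UMIs in 35 of 97 β-glucan and 206 UMIs in 49 of 102 PBS mast-type cells, 103 and 431 CPM, with no cell over 13 UMIs. Its log2 ratio was -2.07 (-2.50 to -1.66), and from -2.22 to -1.55 over the alternatives. Elsewhere it was low, at 0 in basophil-type cells and at 2.35 (β-glucan) and 1.44 CPM (PBS) outside the members. Most of the others turned on single cells. All 76 UMIs of Cpne5 and 95 of the 109 UMIs of Retnla in PBS mast-type cells came from 1 cell each, as did 55 of 82 for Lyve1 and 75 of 107 for Eprs, beside Ccl3 and Ccl4. 2210408I21Rik, a gene of unknown function, had 18 and 51 UMIs in 12 and 15 cells.

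Of the 8 highest, Pou2f2 was the broadest. This transcription factor of B cells and macrophages had 65 UMIs in 23 of 97 β-glucan cells and 3 UMIs in 3 of 102 PBS cells, which was 106 and 6.28 CPM. Its log2 ratio was 4.08 (2.46 to 6.39). The ratio was 5.17 without the macrophage-marked cells, and the gene was at 107 and 78.8 CPM in macrophages. Marchf1, a ubiquitin ligase, had 76 UMIs in 15 cells and 6 UMIs in 5 cells (3.30, 2.11 to 4.79), Cd83 155 UMIs in 17 cells and 14 in 7 cells (3.11, 2.32 to 4.01), and Ms4a6d 62 UMIs in 19 cells and 6 in 5 cells (3.01). Marchf1, Cd83, Ms4a6d and Pou2f2 were at 215, 336, 175 and 118 CPM among β-glucan cells that were not members. All 63 UMIs of Ccl5 were in 1 cell, as were 54 of 88 for Ebf1, 29 of 66 for Aff3 and 31 of 81 for Spp1. The ratio of Spp1 turned from 3.17 to -1.32 without the macrophage-marked cells.

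Basophil-type cells were 3 in the β-glucan and 10 in the PBS library, with 25123 and 86421 UMIs. Mcpt8 had 19, 3 and 1 UMIs in the 3 β-glucan cells and 1 to 5 UMIs in each PBS cell. The β-glucan cell with 1 Mcpt8 UMI had 14504 UMIs, 57.7% of its library's basophil-type total, with macrophage markers at 11100 CPM, 1 UMI of Ccl3 and 10 of Hdc, and it lay in a cluster of 1291 cells outside the basophil-type cluster. The deepest PBS cell, of 24784 UMIs (28.7% of the total), had macrophage markers at 16704 CPM but had 298 UMIs of Hdc and 132 of Ccl3. The other 11 cells had 4760 to 9035 UMIs and macrophage markers at 0 to 2021 CPM.

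The basophil-type cells were rich in chemokine, cytokine and histamine transcripts. Hdc was found in 13 of 13 cells, with a median of 73 UMIs and a range of 10 to 298. Ccl3 and Ccl4, inflammatory chemokines, had medians of 55 and 78 UMIs and were found in 13 of 13 cells, and Csf1, the macrophage growth factor, had a median of 25 UMIs in 13 of 13. Il6 had 263 UMIs in 11 cells, of which 147 were in 1 PBS cell, and Il4 had 152 UMIs in 10 cells, of which 75 and 56 were in 2 PBS cells. Osm, oncostatin M, was found in 9 cells with up to 80 UMIs, and Ptgs2, the inducible cyclooxygenase, in 9 cells with up to 79 UMIs. Cd200r3 was found in 13 of 13 cells and Csf2rb, a receptor chain for interleukin-3, in 13 of 13, whereas Kit was at 0 in all 13.

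**Figure D4:**
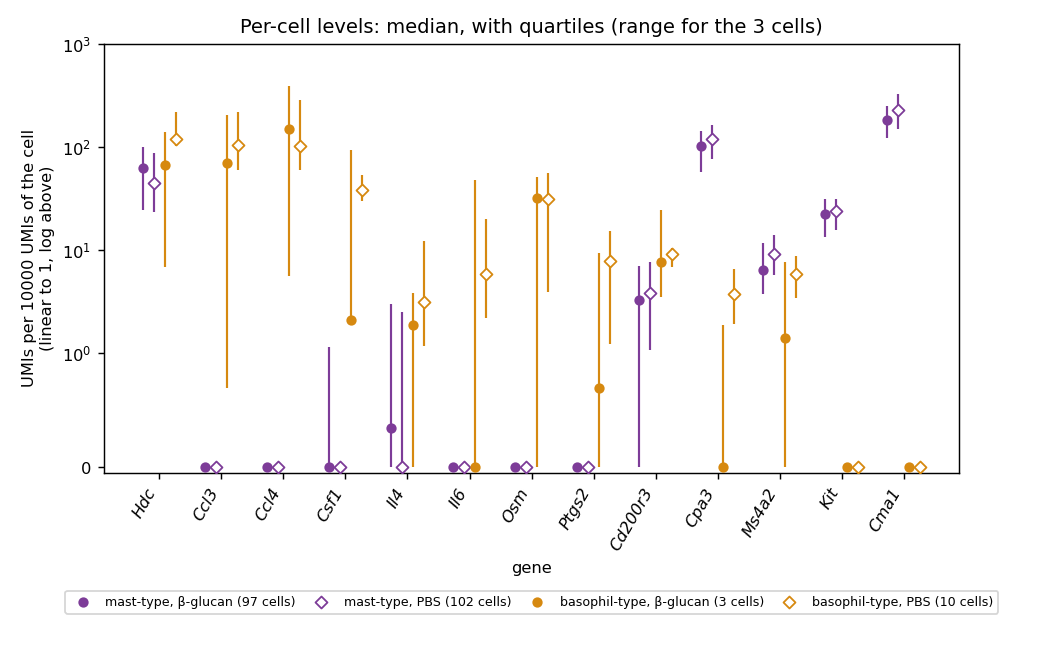
UMIs per 10000 UMIs of the cell (vertical axis, linear up to 1 and log above) for 13 genes in mast-type and basophil-type cells of each library; symbols are medians and lines the quartiles, or the range for the 3 β-glucan basophil-type cells. Ccl3, Ccl4, Csf1 and Osm have medians of 0 in mast-type cells and above 0 in basophil-type cells, and Kit the reverse.

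In PBS, where 10 cells were available, Hdc was at 13839 CPM in basophil-type and 6196 CPM in mast-type cells, Ccl4 at 17565 and 264 CPM and Ccl3 at 13793 and 167 CPM, nearly all of the latter values from the 1 unclear mast-type cell described above, Csf1 at 4999 and 224 CPM, Il6 at 2754 and 64.9 CPM, and Il4 at 1724 and 174 CPM. The genes highest over mast-type cells in both libraries were, beside Ccl3 and Ccl4, Alox15, Csrp3, Ifitm1, Aqp9, Plac8, Cdh1, Adora2b and Perp. Ifitm1 was at 1791 and 4374 CPM in β-glucan and PBS basophil-type cells against 9.77 and 56.5 CPM in mast-type cells. Cdh1, E-cadherin, was at 597 and 671 CPM in 13 of 13 basophil-type cells against 0 and 12.6 CPM in mast-type cells, the latter from 1 cell. Alox15, a lipoxygenase, was at 119 and 174 CPM in 9 of 13 basophil-type cells and at 0 in mast-type cells. In the other direction, Ext1 was at 2853 and 4030 CPM in mast-type and 79.6 and 104.1 CPM in basophil-type cells, and Il1rl1 at 1855 and 1856 against 119 and 220 CPM. Gata2, at 836 and 1030 CPM in basophil-type cells, was alike in both types. Its UMIs helped choose the members of both, so it is given as a description. Of 1742 genes other than rule and split genes at 100 CPM or more in mast-type cells of both libraries, 77 were at 0 in basophil-type cells and so could not be ranked by ratio. Those most abundant in mast-type cells included Kit (1790 and 2327 CPM), Hs6st2 (1418 and 1695 CPM), Rab27b (861 and 1128 CPM) and Tph1 (739 and 730 CPM), which were chosen after their values were seen.

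**Figure D5:**
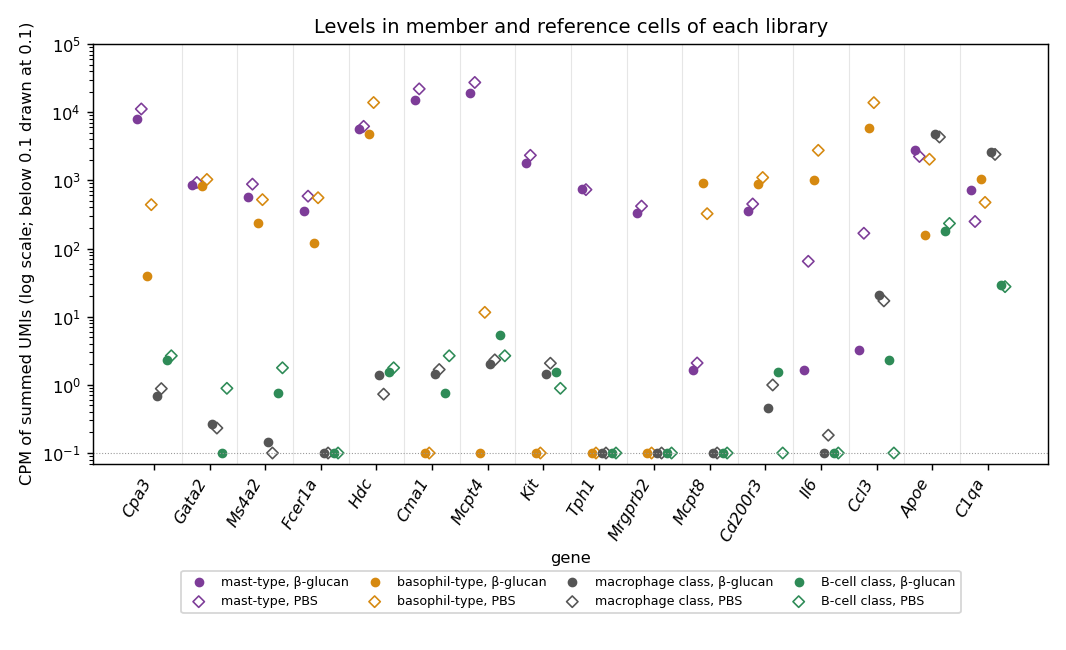
CPM of summed UMIs (vertical axis, log scale, with values under 0.1 drawn at 0.1) for 16 genes in mast-type, basophil-type, macrophage-class and B-cell-class cells; filled circles are β-glucan and open diamonds PBS. Hdc lies at least 10-fold above the macrophage class in both member types and Kit and Tph1 in mast-type cells alone, and Il6 is highest in basophil-type cells; the gaps of the genes that chose or split the members follow from that choice.

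Between the libraries the 3 and 10 basophil-type cells allowed values but little comparison. Of 4364 genes at 50 CPM or more, 1870 (42.9%) were at least 1.5-fold higher and 1355 (31%) lower in β-glucan. Their median log2 ratio was 0.20. With that median set to 0 the counts were 1602 and 1638, but this step itself brings both directions near balance, so it decides nothing about them. A single UMI in the β-glucan sum of Cpa3 came to 39.8 CPM. Without the members with macrophage markers at 10% or more, which left 2 and 8 cells, the counts were 1899 and 1747. Over all 3 β-glucan cells, 12 of 15 cytokine and chemokine genes were lower and 1, Tnf, higher, but this count rested on the β-glucan cell of 14504 UMIs outside the basophil-type cluster. Without that cell, a choice made after seeing the data, 7 were lower and 3 higher, and over all genes 1659 of 4333 were lower and 1834 higher. In β-glucan and PBS, Il6 was at 995 and 2754 CPM, Csf1 at 2149 and 4999 CPM, Hdc at 4737 and 13839 CPM and Ccl3 at 5891 and 13793 CPM. Without that cell the β-glucan values were 2354 CPM for Il6, 4803 CPM for Csf1, 10265 CPM for Hdc and 13843 CPM for Ccl3, all within 1.5-fold of PBS, and Ccl4 was 1.5-fold higher, at 26933 against 17565 CPM. Il4 stayed lower, at 119 CPM with that cell and 283 CPM without it against 1724 CPM, but 75 and 56 of its 149 PBS UMIs came from 2 cells. Ptgs2 also stayed lower, at 239 CPM with that cell and 471 CPM without it against 1713 CPM in PBS. Tnf stayed higher, at 796 and 1883 CPM against 428 CPM, on 20 and 37 UMIs in β-glucan and PBS. The deepest PBS cell, with macrophage markers at 16704 CPM, was kept in these values. Without the members of both libraries with macrophage markers at 10% or more, Il6 was at 2354 and 4164 CPM (-0.82), over 1.5-fold lower. Ccl4 was then at 26933 and 25607 CPM (0.07), and Csf1, Hdc and Ccl3 stayed within 1.5-fold. In that setting 7 of the 15 cytokine and chemokine genes were lower and 1 higher, against 1747 and 1899 of 4371 genes. The 2 β-glucan cells in the basophil-type cluster had 73 and 36 UMIs of Hdc, 37 and 110 of Ccl3, 78 and 208 of Ccl4, 2 and 1 of Il4, and 25 and 0 of Il6. In the 10 PBS cells these ranged from 40 to 298 for Hdc, 31 to 347 for Ccl3, 17 to 477 for Ccl4, 0 to 75 for Il4, and 1 to 147 for Il6. Both β-glucan cells lay within the PBS range for Ccl3, Ccl4 and Il4, and for Il6 1 of the 2 had 0 UMIs where every PBS cell had 1 or more. For Hdc the lower β-glucan cell had fewer UMIs than any PBS cell, but per 10000 UMIs of the cell it was at 67.4, above 2 PBS cells at 44.3 and 63.9. Of 2688 genes at 100 CPM or more in either library, leaving out mitochondrial, ribosomal protein, rule and split genes, 103 were at 0 in PBS and 158 at 0 in β-glucan basophil-type cells. These ratios have no finite size and so no order, and no gene is named from them.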

How the data were processed

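Synovial CD45+CD11b+ cells of 4 pooled mice per group gave 1 library each by 10x 3' single-cell RNA sequencing. The authors deposited UMI counts per gene and barcode, made with Cell Ranger 7.0.0. The labels name both GRCm39 and mm10, and the study's methods name GRCm39 for the reference and mm10 only in the name of a filtering recipe. They do not say whether intron reads were counted. Barcodes with under 500 genes or over 10% mitochondrial UMIs were dropped, leaving 5696 of 7196 and 4553 of 5760 barcodes as cells, at median depths of 12457.5 and 14475 UMIs.

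UMIs were summed per cell type and library and scaled to CPM. Log2 ratios carry exact binomial 95% intervals, and shares Clopper-Pearson intervals, for counting error only. UMIs of 1 cell are not independent, so the intervals of sums are too narrow. A gene was counted in a comparison at 50 CPM or more in either library, and a difference of 1.5-fold is a size and not a test. Genes were named when they were in the rule, the split or a list, or among the 8 highest and 8 lowest mast-type ratios (4 and 4 in basophil-type cells) at 100 CPM or more without mitochondrial, ribosomal, rule and split genes, or among the 10 highest between member types or against the other cells by the lower of the 2 libraries. Genes tied at an infinite ratio, between libraries in basophil-type cells and in mast-type over basophil-type cells, were counted and not named by this rule. Members and lists were chosen with earlier results of these data known. Clusters were made without rule and split genes from 3000 variable genes, 30 components and 20 neighbours at a Leiden resolution of 0.7. Cells of 3000 UMIs or more were thinned to 3000 UMIs for 1 alternative. A few genes of the lists are not reported here. Doublets were called with Scrublet and none were removed. The interval was tested on simulated data.

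Python 3.11.15, numpy 2.4.6, scipy 1.17.1, pandas 2.3.3, scanpy 1.11.5, leidenalg 0.10.2 and matplotlib 3.10.9 were used. Promoters were read from GRCm39 with GENCODE gene starts, and 205 of 206 list genes were placed.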

Additional observations from a re-analysis of the deposited data

Results flagged for a closer look

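Members also occurred among the barcodes that were left out for few genes or many mitochondrial UMIs, which no comparison above used. By the same rule, 9 of 1500 such barcodes in the β-glucan library (0.6%, 0.275 to 1.14, Clopper-Pearson) and 11 of 1207 in the PBS library (0.911%, 0.456 to 1.62) were members. The intervals overlapped.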

How the results depend on the processing

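With 1 library per group no library could be left out and no spread between animals can be given. No paired analysis was possible because each group holds 1 library. Leaving out cells over 10000 UMIs, cells with macrophage markers at 25% or more, each gene's top cell, members with a shared barcode, mast-type cells on 1 split UMI or with 10 or more S100a9 UMIs, or the basophil-type cell outside the basophil-type cluster, and splitting by Kit, were chosen after seeing the data. Of 90 single genes with a ratio, 36 differed by at least 1.5-fold, 21 of these kept their sign under all alternatives that gave a value, and 13 stayed at least 1.5-fold apart. Of the 15 lower genes 11 kept their sign, and of the 21 higher genes 10 did. An alternative with 0 UMIs in a library gave no value. Ccl3, counted among the 11, is such a case. It had 2 UMIs in β-glucan and 0 in PBS without the cells on 1 split UMI or with 10 or more S100a9 UMIs.

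Members were 1.14% (β-glucan) and 1.71% (PBS) of cells after thinning and 0.657% and 1.16% without members with macrophage markers at 10% or more, where mast-type cells were 82.7% of PBS members. Mast-type genes at least 1.5-fold higher and lower were 1246 and 878 of 7188 at a minimum of 20 CPM. At 200 CPM they were 84 and 60 of 983. They were 921 and 949 of 4404 without the cells at 10% or more, and 876 and 687 of 4402 after thinning. In basophil-type cells they were 3092 and 2692 of 7331 at 20 CPM and 501 and 345 of 1203 at 200 CPM. The minimum itself sets how many genes are counted, so these counts move with it. Thinning also left out all cells under 3000 UMIs, which left 60 β-glucan and 63 PBS mast-type cells. What else lay behind these shifts was not tested.

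Of the 54 genes under 1.5-fold, 34 had ratios of both signs over the main values and the alternatives. The following covers only those of the 90 genes that were at least 1.5-fold apart. Genes outside the 90 that also turned, such as C5ar1, Tbxas1 and Atf3, are given above. Ratios that changed sign were, without the highest Scrublet scores, Lyve1 (0.90) and Il1b (-0.59). Without cells with macrophage markers at 10% or more they were Itgam (-1.98), Fcgr2b (-0.073), Maob (0.20), Alox5 (-0.94), Alox5ap (-0.84) and Ccl9 (-1.98). At 25% or more they were Spp1 (-1.32), Ctsl (-0.95), Itgam (-0.73), C3ar1 (-0.095), Csf1r (-0.73), Alox5 (-1.19), Alox5ap (-0.45), Ccl9 (-1.32), Il1b (-0.091) and Maf (-0.41). Thinning turned Hs3st1 (0.070), and leaving out cells over 10000 UMIs turned Fcgr2b (-0.025). Leaving out the cells on 1 split UMI or with S100a9 turned Ccl4 (1.26). The cause was not tested.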

Other observations

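A few genes outside the naming rule, chosen after their values were seen, were lower in the β-glucan mast-type sum. Nfkbia, an inhibitor of NF-κB that NF-κB itself induces, had 170 UMIs in 60 of 97 β-glucan cells and 323 UMIs in 65 of 102 PBS cells, 277 and 676 CPM, a log2 ratio of -1.29 (-1.56 to -1.02) against -0.64 in the macrophage class, and -1.14 without the macrophage-marked cells. Fkbp5, a glucocorticoid-induced chaperone, had 39 UMIs in 22 and 80 UMIs in 40 cells, 63.5 and 167 CPM (-1.40, -1.99 to -0.83), against -0.67 in macrophages and -1.68 without those cells. Per1, a clock gene that glucocorticoids also induce, had 26 UMIs in 21 and 50 UMIs in 32 cells, 42.3 and 105 CPM (-1.31, -2.05 to -0.59), against -0.94 in macrophages and -1.54 without those cells, but -0.47, under 1.5-fold, without cells with macrophage markers at 10% or more and with equal weight per cell. Wee1, a cell-cycle kinase, had 46 UMIs in 27 and 106 UMIs in 44 cells, 74.9 and 222 CPM (-1.57, -2.10 to -1.05), against -0.39 in macrophages and -1.73 without those cells. Whether these differences are larger than those between animals cannot be told from 1 library per group.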
